A study of Mus musculus with 2 samples.

Results

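The expression of 10 genes of the kidney's intercalated cell was measured in ureters of E14.5 mouse embryos. They are Foxi1, Atp6v0d2, Atp6v0a4, Atp6v1g3, Rhcg, Rhbg, Slc4a1, Slc4a9, Slc26a4 and Car2. All noncontrol probes whose accession belongs to 1 of these 10 genes were taken, which gave 12 of the 39429 probes and 10 of the 32103 gene names on the arrays. Atp6v0d2 and Slc4a9 have 2 probes each and the other genes 1. The genes were chosen by name with the log2 ratios of this same comparison known, so their ratios and levels are a description, with no test.

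The Tbx2/Tbx3cDKO ureters were Tbx18(cre/+) and homozygous for both floxed genes, Tbx2(fl/fl) and Tbx3(fl/fl). Cre from the Tbx18 locus acts in the mesenchyme around the ureter. The control ureters were Tbx18(+/+), so without Cre, and Tbx2(fl/?) and Tbx3(fl/?), with 1 allele of each T-box gene left unspecified. All embryos were of the NMRI strain. Total RNA was compared on 2 two-colour arrays, each holding 1 Tbx2/Tbx3cDKO and 1 control RNA, a female pair as replicate 1 and a male pair as replicate 2. The dyes were exchanged in the male pair, so a difference by sex and one by dye cannot be told apart. No source used here gives the number of embryos behind an RNA, and 2 pairs limit the precision of every value.

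Each probe had 4 spots per array, and it counted as well above background in an RNA where more than 2 of the 4 were. Well above background were 70.8% and 71.6% of green spots and 66.9% and 64.3% of red spots on the female and the male array, and 0 spots were saturated. Of the targeted genes, Tbx3 had a log2 ratio of -1.09 ± 0.10 (SD, n = 2 pairs, limma adjusted p = 0.000862) and Tbx2 of 0.86 ± 0.12 (adjusted p = 0.00236). The Tbx2 transcript thus runs against the label, and no source used here says whether either probe lies within the deleted stretch. Directions below are those of the ureters labelled Tbx2/Tbx3cDKO against control.

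Intercalated cells are scattered epithelial cells of the kidney's connecting tubule and collecting duct that move acid and base. Proton pumps of the vacuolar type (V-ATPase) acidify the urine on the apical side, carbonic anhydrase supplies protons and bicarbonate, anion exchangers carry bicarbonate out, and Rh glycoproteins pass ammonia. The forkhead factor Foxi1 is required in mouse for this cell type and for its relatives in the inner ear and epididymis. Slc4a1 belongs to the acid-secreting type, whereas Slc26a4 and Slc4a9 belong to the base-secreting type, so the set covers both. Several of the genes also serve other cells: Slc4a1 and Car2 are abundant in red blood cells, and Atp6v0d2 is a V-ATPase subunit of osteoclasts. In these bulk RNAs, fewer cells of a type and less RNA per cell cannot be told apart.

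A promoter window of 250 bases before the annotated start was available from RefSeq (GRCm38.p6) for 5 of the 10 genes, Foxi1, Atp6v0a4, Atp6v1g3, Rhcg and Slc26a4. The windows of Foxi1 and Rhcg are printed because these genes had high ratios in both pairs, and that of the V-ATPase subunit gene Atp6v1b1 because Foxi1 is known to act on it. The capitals mark matches to the forkhead motif TGTTTAC (both strands) or to TATAA (gene strand). Foxi1 lies at chr11:34208090-34208339 on the minus strand, Rhcg at chr7:79617658-79617907 on the minus strand and Atp6v1b1 at chr6:83742767-83743016 on the plus strand.
Foxi1: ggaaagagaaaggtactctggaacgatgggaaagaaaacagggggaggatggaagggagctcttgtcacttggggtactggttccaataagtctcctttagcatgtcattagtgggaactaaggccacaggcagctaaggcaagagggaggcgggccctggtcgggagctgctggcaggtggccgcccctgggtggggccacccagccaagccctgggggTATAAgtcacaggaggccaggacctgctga
Rhcg: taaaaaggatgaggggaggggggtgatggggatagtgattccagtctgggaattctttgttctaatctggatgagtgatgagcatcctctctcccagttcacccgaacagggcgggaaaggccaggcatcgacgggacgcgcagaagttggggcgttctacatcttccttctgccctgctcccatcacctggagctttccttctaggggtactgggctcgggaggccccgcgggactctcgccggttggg
Atp6v1b1: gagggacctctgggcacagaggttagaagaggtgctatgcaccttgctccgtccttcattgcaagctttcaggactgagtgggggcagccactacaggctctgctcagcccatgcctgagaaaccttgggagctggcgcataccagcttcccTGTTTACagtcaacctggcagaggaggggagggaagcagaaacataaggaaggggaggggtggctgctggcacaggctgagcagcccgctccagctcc
TATAA stood 30 bases before the start of Foxi1, and TGTTTAC 98 bases before that of Atp6v1b1. The T-box half-site GGTGTGA, also searched on both strands, was in none of the 3 printed windows. Over all 32851 promoter windows, TGTTTAC was in 3.17%, GGTGTGA in 3.33% and TATAA in 16%. Among the 5 genes with a window, TGTTTAC and GGTGTGA were in 0 and TATAA was in those of Foxi1 and Slc26a4. A match or its absence describes the letters of these windows only.

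Foxi1 was 1.69-fold and Rhcg 1.58-fold higher in Tbx2/Tbx3cDKO ureters. Atp6v0d2 had the highest ratio of the set, but its control RNA was well above background in the female pair only, so the size of its ratio is less certain. Rhbg, Atp6v1g3 and Slc26a4 had smaller positive ratios at dim signal, and Atp6v0a4, Slc4a1, Slc4a9 and Car2 lay between -0.14 and 0.14 log2 units in both pairs. Of the 12 probes, 10 had a ratio above 0 in both pairs, and the median over the 12 was 0.25, at 0.28 (female) and 0.21 (male). Over all 20629 genes tested the median was -0.0021, the 5th percentile was -0.22, the 95th was 0.23, and 27.6% were above 0 in both pairs. A gene entered the test where 1 of the genotypes was well above background on both arrays, and 8 of the 10 genes did. Atp6v0d2 and Rhbg did so through the Tbx2/Tbx3cDKO RNA only. At an adjusted p under 0.05 in limma, 3 of these 8 were called higher and 0 lower, where 1.87% of all tested genes were called higher, 1.81% lower and 3.68% in either direction. In both pairs 0 of the 12 probes were at least 2-fold higher, where 0.208% of tested genes were. Because results of this contrast chose the genes, nothing is read from these counts.

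**Figure D1:**
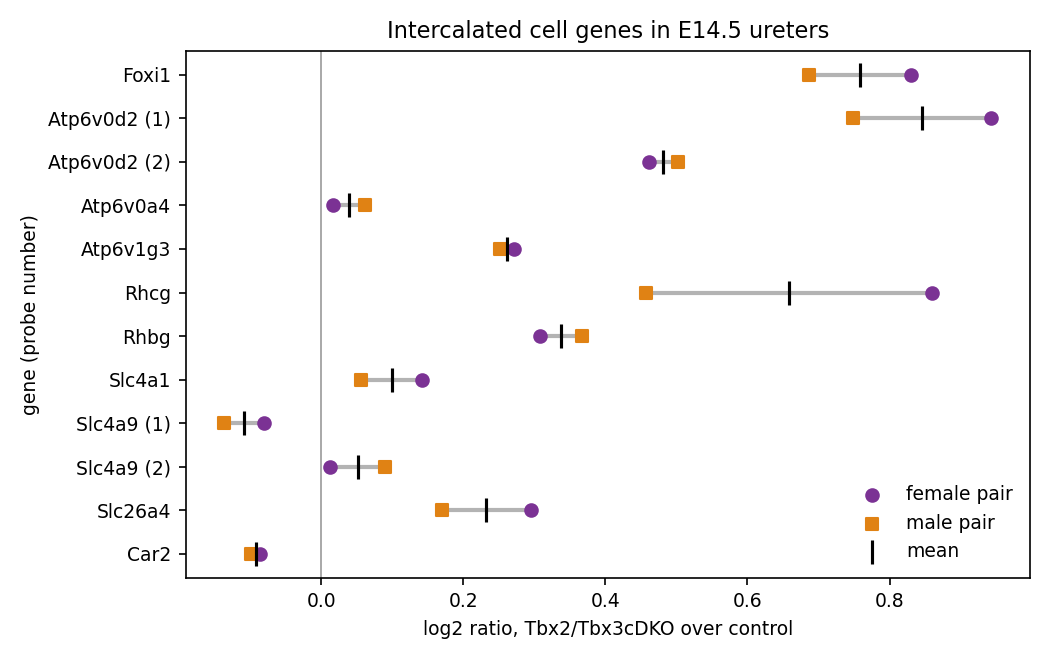
The x axis gives the log2 ratio of Tbx2/Tbx3cDKO over control for each of the 12 probes, with 1 point for the female pair, 1 for the male pair and a tick for their mean. Foxi1, the brighter Atp6v0d2 probe and Rhcg lie farthest right, and Car2 and 1 of the Slc4a9 probes lie left of 0 in both pairs.

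Foxi1 is the transcription factor at the head of the programme. Its normalized log2 level was 9.24 in the female and 8.96 in the male Tbx2/Tbx3cDKO ureters, against 8.41 and 8.27 in the control ureters. Both Tbx2/Tbx3cDKO values lay above both control values, and all spots were well above background. The genes were chosen with these ratios known, so nothing is read from such a separation here or below. The log2 ratio was 0.83 (female) and 0.69 (male), with a mean of 0.76 ± 0.10 (SD, n = 2 pairs), or 1.69-fold. Before normalization, the 4 spots of the female pair spanned 546.5 to 623 intensity units in Tbx2/Tbx3cDKO and 243 to 276 in control ureters. Those of the male pair spanned 380 to 451 in Tbx2/Tbx3cDKO and 205.5 to 236.5 in control ureters, so single spots of the genotypes did not overlap within a pair. The spots repeat 1 RNA per genotype, so they show the spread between spots and not that between embryos. By mean ratio, 0.373% of the tested genes stood as high as Foxi1 or higher.

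Its relatives Foxi2 and Foxi3 did not enter the test, because for both genes neither genotype was well above background on both arrays. The ratios of Foxi2 were -0.027 and 0.026, those of Foxi3 were 0.017 and -0.040, and each pointed opposite ways in the female and the male pair. These ratios give no size and are not a measured absence of change.

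Atp6v0d2 encodes a d subunit of the membrane-embedded V0 part of the proton pump, found in intercalated cells and osteoclasts. With the brighter of its 2 probes the level was 8.01 and 7.86 in Tbx2/Tbx3cDKO ureters, against 7.07 and 7.11 in control ureters. The genotypes did not overlap. All 4 spots per array were well above background in Tbx2/Tbx3cDKO ureters, against 4 (female) and 0 (male) in control ureters. The log2 ratio was 0.94 (female) and 0.75 (male), with a mean of 0.85 ± 0.14 (SD, n = 2 pairs). The male value sets a measured level against a control signal near background.

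The dimmer Atp6v0d2 probe pointed the same way. It had levels of 7.26 and 7.31 in Tbx2/Tbx3cDKO ureters, against 6.80 and 6.81 in control ureters. Control RNA was not well above background for it on either array, so Atp6v0d2 was at least 1.28-fold higher by this probe, with measured ratios of 0.46 and 0.50. For such a bound the mean of the Tbx2/Tbx3cDKO levels was set against the lowest level well above background on each array, or the probe's own control level where that was higher.

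The other intercalated cell subunits of the pump had smaller ratios. Atp6v0a4 encodes the a4 subunit of the V0 part, which is mutated in human distal renal tubular acidosis. Its levels were 9.03 and 9.02 in Tbx2/Tbx3cDKO ureters, against 9.01 and 8.96 in control ureters, with a mean log2 ratio of 0.039 ± 0.032 (SD, n = 2 pairs). It was well above background in all 4 RNAs, and the levels of both genotypes lay side by side. Atp6v1g3, a G subunit of the cytosolic V1 part, had levels of 7.01 and 7.0 in Tbx2/Tbx3cDKO ureters, against 6.74 and 6.75 in control ureters. Only 2 and 4 of its 4 spots were well above background in Tbx2/Tbx3cDKO ureters and 2 and 0 in control ureters. The probe did not enter the test, and with neither genotype well above background on both arrays its ratios of 0.27 and 0.25 give no size.

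Other subunits, many of them used by most cells, gave a comparison within the same pump. The list leaves out Atp6v1b1 and Atp6v1c2, which were counted with the other intercalated cell genes below. Of its 20 measured genes, 0 rose, 0 fell and 20 did not pass. With limma 0 of them were under 0.05 without adjustment too. Their median log2 ratio was 0.037, and single means ran between -0.072 and 0.080. The widely expressed paralogue of Atp6v0d2, Atp6v0d1, had a mean ratio of 0.041 ± 0.17 (SD, n = 2 pairs). Among the paralogues of Atp6v0a4, Atp6v0a1 had -0.072, Atp6v0a2 had 0.0088 and Tcirg1, the osteoclast a3 subunit, had 0.047. Atp6v1g1 and Atp6v1g2, paralogues of Atp6v1g3, had -0.071 and 0.036. None of these paralogues passed the test.

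**Figure D2:**
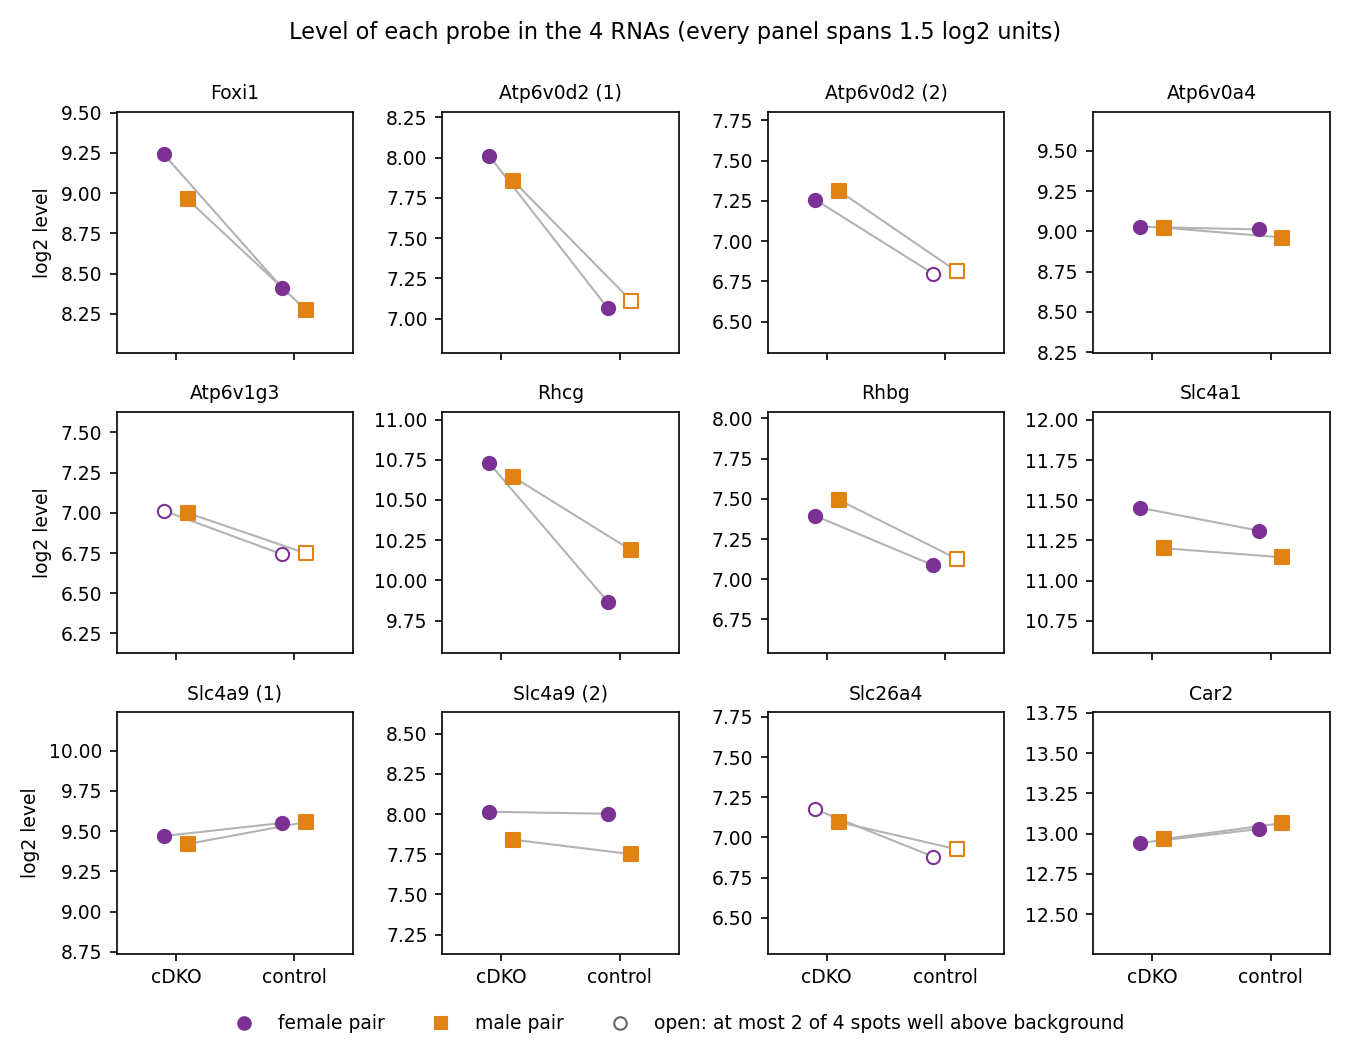
Each panel gives the normalized log2 level of 1 probe in the 4 RNAs, Tbx2/Tbx3cDKO at the left and control at the right, with lines joining the RNAs of a pair and open symbols where at most 2 of 4 spots were well above background. The lines fall from left to right for Foxi1, both Atp6v0d2 probes, Rhcg and Rhbg, and are close to level for Atp6v0a4 and Car2.

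Rhcg and Rhbg are the ammonia channels of the collecting duct, Rhcg on the apical and basolateral side and Rhbg on the basolateral side. Rhcg had levels of 10.73 and 10.64 in Tbx2/Tbx3cDKO ureters, against 9.87 and 10.19 in control ureters. The genotypes did not overlap, and the controls differed more from each other than the Tbx2/Tbx3cDKO ureters did. The ratio was 0.86 (female) and 0.46 (male), with a mean of 0.66 ± 0.28 (SD, n = 2 pairs), or 1.58-fold. The mean of the spots before normalization was 1778 and 1507 intensity units in Tbx2/Tbx3cDKO ureters, against 822 and 1075 in control ureters.

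The Rhbg probe was dim, with levels of 7.39 and 7.49 in Tbx2/Tbx3cDKO ureters, against 7.09 and 7.13 in control ureters. All 4 spots per array were well above background in Tbx2/Tbx3cDKO ureters, against 4 and 1 in control ureters. The ratio was 0.31 (female) and 0.37 (male), with a mean of 0.34 ± 0.041 (SD, n = 2 pairs). By mean ratio, 2.58% of the tested genes stood as high or higher, against 0.548% for Rhcg and 0.310% for Atp6v0d2. The red cell members of the Rh family did not pass: Rhag had a mean log2 ratio of -0.11 ± 0.15 (SD, n = 2 pairs) and Rhd of -0.017.

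**Figure D3:**
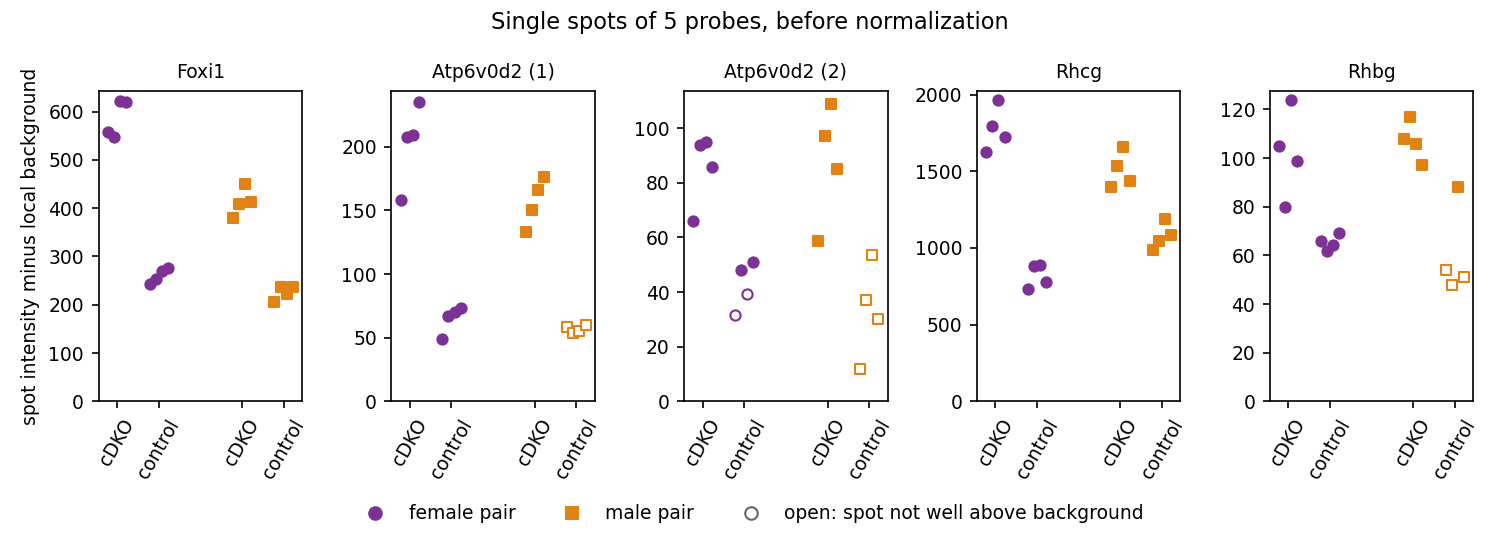
Points are single spots of 5 probes, as mean spot intensity minus local background, for Tbx2/Tbx3cDKO and control RNA of the female pair and then of the male pair, and open points were not well above background. The spots of Foxi1 and Rhcg separate the genotypes within each pair, and the control spots of both Atp6v0d2 probes in the male pair are all open.

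The exchangers of both intercalated cell types were examined next. Slc4a1, the band 3 chloride and bicarbonate exchanger of red cells and of acid-secreting intercalated cells, was well above background in all 4 RNAs. Its levels were 11.45 and 11.20 in Tbx2/Tbx3cDKO ureters, against 11.31 and 11.15 in control ureters, with ratios of 0.14 and 0.056 and a mean of 0.099 ± 0.060 (SD, n = 2 pairs). The difference within a pair was smaller than that between the female and the male pair of the same genotype in Tbx2/Tbx3cDKO ureters.

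Slc26a4, pendrin, the apical exchanger of the base-secreting type, was near the limit of detection. Its levels were 7.18 and 7.10 in Tbx2/Tbx3cDKO ureters, against 6.88 and 6.93 in control ureters, with ratios of 0.30 and 0.17. Only 2 and 4 of 4 spots were well above background in Tbx2/Tbx3cDKO ureters and 2 and 0 in control ureters, so it did not enter the test and its ratios give no size.

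Slc4a9, a basolateral exchanger of the base-secreting type, had probes on both sides of 0. The brighter probe had levels of 9.47 and 9.42 in Tbx2/Tbx3cDKO ureters, against 9.55 and 9.56 in control ureters, with a mean ratio of -0.11 ± 0.039 (SD, n = 2 pairs). The dimmer probe had 8.01 and 7.84 in Tbx2/Tbx3cDKO ureters, against 8.0 and 7.75 in control ureters, with a mean ratio of 0.052 ± 0.055. The probes therefore give Slc4a9 no single direction.

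Car2, the cytosolic carbonic anhydrase of intercalated cells and red cells, had levels of 12.94 and 12.97 in Tbx2/Tbx3cDKO ureters, against 13.03 and 13.07 in control ureters, with a mean ratio of -0.092 ± 0.0093 (SD, n = 2 pairs). The ratios of -0.086 and -0.099 were closer together than those of any other probe of the set.

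Other genes known from intercalated cells were then counted from a list of 22, of which 18 were measured. Of these 6 rose, 1 fell and 11 did not pass, with a median log2 ratio of 0.36, at 0.39 (female) and 0.25 (male). Over all tested genes 1.87% were called higher and 1.81% lower. The list was written with earlier results of these data known, so nothing is read from its counts. Atp6v1c2, a C subunit of the V1 part, rose by 0.69 ± 0.088 (SD, n = 2 pairs, limma adjusted p = 0.00487), with levels of 8.51 and 8.23 in Tbx2/Tbx3cDKO ureters, against 7.76 and 7.60 in control ureters. Atp6v1b1, the B1 subunit that Foxi1 is known to activate, rose by 0.65 ± 0.096 (limma adjusted p = 0.00642), with levels of 7.58 and 7.35 in Tbx2/Tbx3cDKO ureters, against 6.86 and 6.77 in control ureters. Of its 4 control spots 3 (female) and 0 (male) were well above background. Atp6v1b1 thus entered the test through the Tbx2/Tbx3cDKO RNA only, and the size of its rise is less certain. Tfcp2l1, a transcription factor of the collecting duct needed for intercalated cells in mouse, rose by 0.57 ± 0.14 (limma adjusted p = 0.0125). Its levels were 12.14 and 12.18 in Tbx2/Tbx3cDKO ureters, against 11.47 and 11.70 in control ureters. For all 3 genes the genotypes did not overlap. The 3 were named by the size of their change past the threshold, so nothing is read from that separation.

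Among the other genes of the list that rose, named after their values were seen, were the transcription factor gene Dmrt2 at 0.54 ± 0.058 and the receptor gene P2ry14 at 0.38 ± 0.0020 (SD, n = 2 pairs). Avpr1a, the V1a vasopressin receptor, fell by 0.93 ± 0.047 (SD, n = 2 pairs, limma adjusted p = 0.00116), with levels of 10.05 and 10.14 in Tbx2/Tbx3cDKO ureters, against 10.95 and 11.11 in control ureters. Avpr1a is also the vasopressin receptor of vascular smooth muscle. All 7 smooth muscle genes listed fell, and their summed level was 23080 and 23553 intensity units in Tbx2/Tbx3cDKO ureters, against 159284 and 216725 in control ureters. Its part in the Avpr1a result was not tested. Aqp6, a water channel of acid-secreting intercalated cells, and Hmx2 were not well above background in any RNA. The calls of this list were fewer under some alternatives: 1 of its genes was called higher with median centring in place of loess and 2 with the deposited value table.

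**Figure D4:**
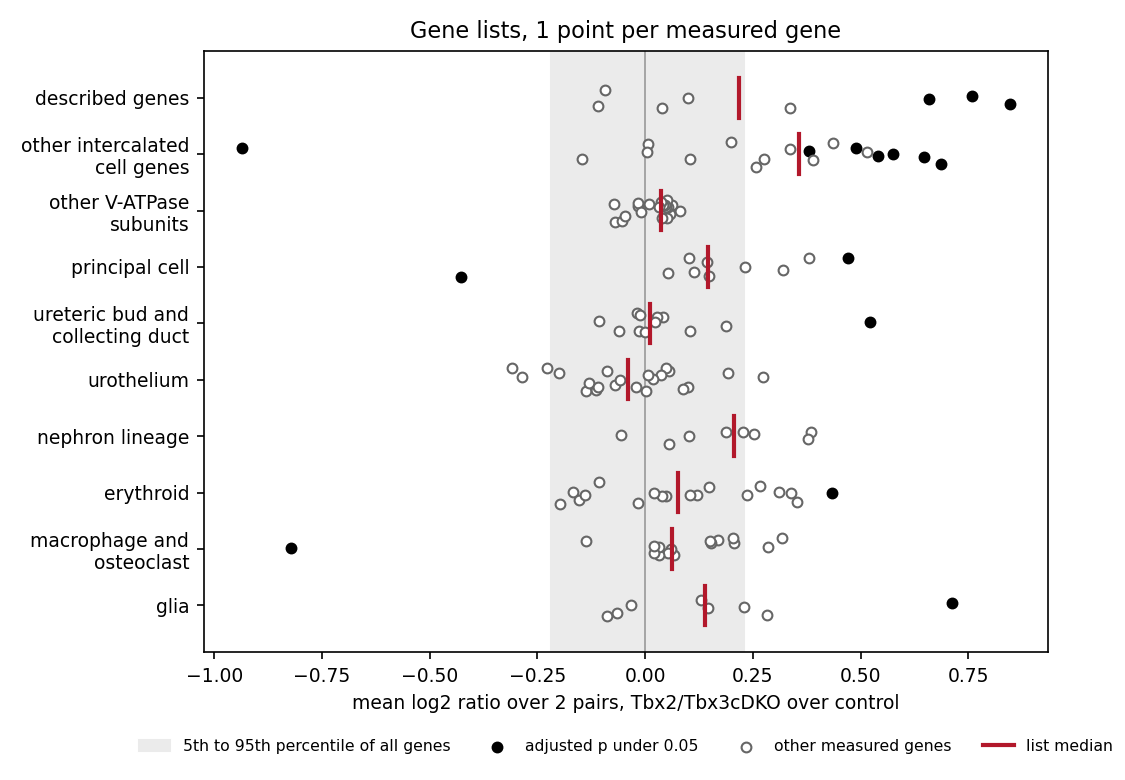
Each point is 1 measured gene, placed by its mean log2 ratio of Tbx2/Tbx3cDKO over control, with filled points past the limma threshold, a bar at the list median and a band between the 5th and 95th percentiles of all genes. The other intercalated cell genes have a median of 0.36, and the other V-ATPase subunits lie close to 0.

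The 10 genes were set beside markers of the cells that could carry them or stand near them. As a sign of intercalated cells the markers were mixed. Foxi1, Rhcg, Atp6v0a4 and Slc4a9 were well above background in all 4 RNAs, controls included. Atp6v0d2 and Rhbg were so in Tbx2/Tbx3cDKO ureters on both arrays. Atp6v1g3 and Slc26a4 were so on both arrays in neither genotype, and Aqp6 in no RNA. Slc4a1 and Car2, also well above background in all 4 RNAs, are shared with red cells. Summed levels here and below take in every listed gene on the arrays, also those that did not enter the test. The brightest probes weigh most in such a sum, so it does not measure the amount of a cell type. Over the 22 other intercalated cell genes the sum was 34714 and 34463 intensity units in Tbx2/Tbx3cDKO ureters, against 31919 and 30735 in control ureters. Principal cells are the neighbours of intercalated cells in the collecting duct. Of 10 measured principal cell genes 1 rose, 1 fell and 8 did not pass, with a median of 0.15, and 9 were above 0 in both pairs. Fxyd4, a regulator of the sodium pump, rose by 0.47 ± 0.060 (limma adjusted p = 0.0170), and Hsd11b2, the enzyme that inactivates glucocorticoids, fell by 0.43 ± 0.11 (limma adjusted p = 0.0317; SD, n = 2 pairs each). The summed level of the 13 listed principal cell genes was 50985 and 52233 in Tbx2/Tbx3cDKO ureters, against 41762 and 44294 in control ureters. Cldn8 and Fxyd4 were the brightest of the listed genes. The levels of Fxyd4 were 14.34 and 14.32 in Tbx2/Tbx3cDKO ureters, against 13.83 and 13.89 in control ureters. Kcnj1 and Scnn1g were not well above background in any RNA.

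Of 12 measured genes of the ureteric bud and collecting duct, 1 rose, Tfap2b at 0.52 ± 0.0084 (SD, n = 2 pairs, limma adjusted p = 0.0104), and 0 fell. The median was 0.011. Over the 13 listed genes the summed level was 45267 and 40634 in Tbx2/Tbx3cDKO ureters, against 42212 and 44089 in control ureters. Of 22 urothelial genes, which mark the epithelium lining the ureter, 0 rose, 0 fell and 22 did not pass, with a median of -0.039, and 6 were under 0.05 in limma without adjustment. The largest mean changes among them were -0.31 for Krt20 and -0.29 for Upk1b. Their summed level was 304739 and 310730 in Tbx2/Tbx3cDKO ureters, against 340021 and 321737 in control ureters. Of 8 measured nephron genes 0 passed in limma and 3 were under 0.05 without adjustment. Their median was 0.21, at 0.018 (female) and 0.21 (male), and the lineage markers Nphs1, Slc12a1, Slc12a3 and Umod were not well above background in any RNA. The summed level of the 14 listed nephron genes was 29742 and 30610 in Tbx2/Tbx3cDKO ureters, against 26989 and 25812 in control ureters. The largest mean changes there were 0.38 ± 1.02 for Six2 and 0.38 ± 0.58 for Wt1 (SD, n = 2 pairs each).

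Of 18 measured red cell genes 1 rose, the globin Hbb-b1 at 0.43 ± 0.11 (SD, n = 2 pairs, limma adjusted p = 0.0301), and 0 fell. Their median was 0.075. Their summed level was 817965 and 717584 in Tbx2/Tbx3cDKO ureters, against 639287 and 711470 in control ureters. Among the described genes that red cells share, Slc4a1 had log2 ratios of 0.14 (female) and 0.056 (male), and Car2 of -0.086 and -0.099. Of 16 measured macrophage and osteoclast genes 0 rose and 1 fell, the gelatinase gene Mmp9 at -0.82 ± 0.16 (SD, n = 2 pairs, limma adjusted p = 0.00401), with a median of 0.063. The summed level of the 17 listed genes was 54397 and 56161 in Tbx2/Tbx3cDKO ureters, against 51330 and 51437 in control ureters. Dcstamp, a fusion receptor of osteoclasts, was not well above background in any RNA. Acp5, Ctsk and Mmp9 of the same list were so in all 4 RNAs, and Ocstamp in all but the male control. Of 8 measured glial genes 1 rose, Fabp7 at 0.71 ± 0.023 (SD, n = 2 pairs, limma adjusted p = 0.00321), with a median of 0.14. The 10 listed glial genes summed to 54803 and 49377 in Tbx2/Tbx3cDKO ureters, against 51764 and 51905 in control ureters. The part of any of these cell types in the ratios of the 10 genes was not tested.

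The families of the exchangers and of Car2 gave a further comparison. They share 3 Slc genes and 2 carbonic anhydrase genes with the other intercalated cell list, and the red cell list holds Rhag, Rhd and Car1. Of 13 other measured Slc4 and Slc26 genes 1 rose, the sulfate transporter gene Slc26a1 at 0.46 ± 0.020 (SD, n = 2 pairs, limma adjusted p = 0.0171), and 0 fell, with a median of 0.093. The paralogues Slc4a2 and Slc26a6 had mean ratios of -0.0046 and -0.017 and did not pass. Of 11 other measured carbonic anhydrase genes 1 rose, 1 fell and 9 did not pass. Car3, the carbonic anhydrase of muscle and fat, fell by 2.35 ± 0.29 (SD, n = 2 pairs, limma adjusted p = 0.000237), with levels of 15.79 and 15.26 in Tbx2/Tbx3cDKO ureters, against 17.94 and 17.81 in control ureters. Car8, a carbonic anhydrase relative without the enzyme activity, was at least 1.35-fold higher (limma adjusted p = 0.00849), since its control RNA was not well above background on either array. That bound comes from the brighter of its probes, which entered the test through the Tbx2/Tbx3cDKO RNA only. The dimmer Car8 probe had a mean log2 ratio of 0.34 ± 0.23 (SD, n = 2 pairs), a bound of at least 1.14-fold higher and did not pass when tested by itself (limma adjusted p = 0.125). Of the genes named as rising or falling, the calls of Atp6v1b1, Tfcp2l1, Dmrt2, P2ry14, Fxyd4, Hsd11b2, Tfap2b, Hbb-b1, Slc26a1 and Car8 were lost under at least 1 alternative setting, and those of Atp6v1c2, Avpr1a, Car3, Fabp7 and Mmp9 were not.

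**Figure D5:**
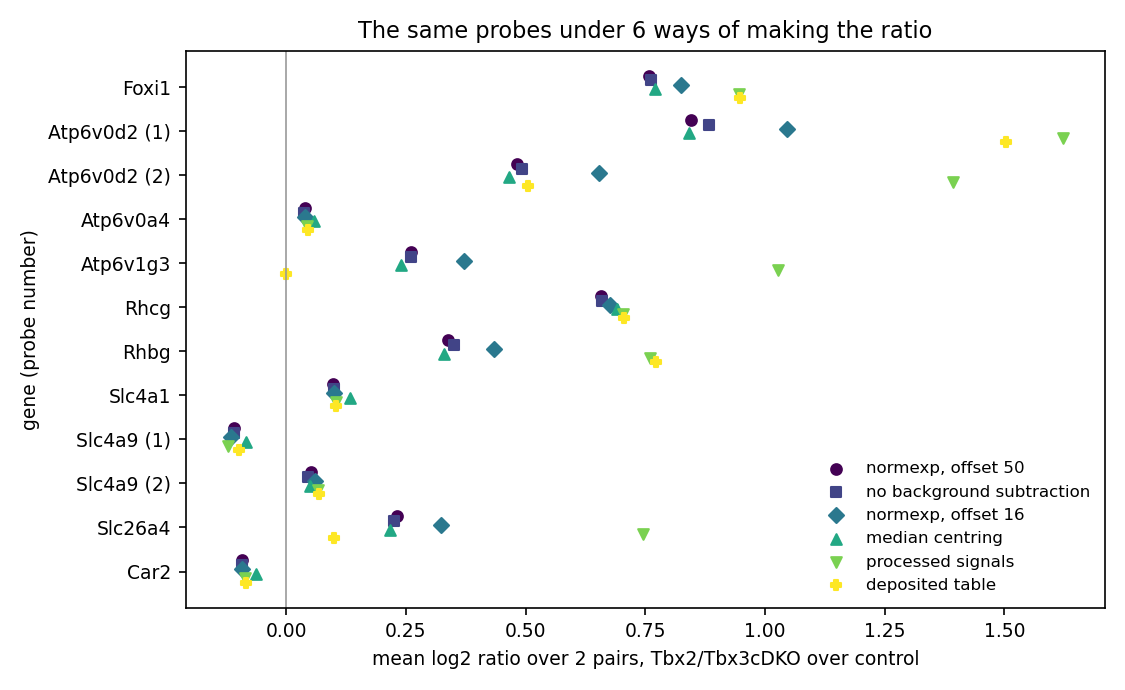
The mean log2 ratio of Tbx2/Tbx3cDKO over control is given for each of the 12 probes under 6 ways of making it, from the background correction of the main analysis to the deposited table. The symbols of dim probes such as Atp6v0d2 spread widely, and those of Atp6v0a4, Slc4a1, Slc4a9 and Car2 stay close to 0.

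The size of the ratios of dim probes depended on the background correction. The offset of 50 intensity units added before the log draws ratios of dim probes towards 0. With the scanner software's processed signals, which carry no such offset, the mean ratio was 0.95 for Foxi1, 1.62 and 1.39 for the Atp6v0d2 probes, 1.03 for Atp6v1g3, 0.76 for Rhbg and 0.74 for Slc26a4. Rhcg, whose probe was well above background in all 4 RNAs, had 0.70. With the deposited value table Atp6v0d2 had 1.5 and 0.51, Rhbg 0.77, Slc26a4 0.10 and Atp6v1g3 0. There, 33.7% (female) and 34.1% (male) of all values are exactly 1, a log2 ratio of 0, so such a value is not a measured absence of change. Over the settings with both pairs and each pair alone, the sign of each of the 12 ratios stayed as given, except that Atp6v1g3 was 0 in the deposited table.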

How the data were processed

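Per the submitters' processing notes, Agilent Feature Extraction 10.7.3.1 read both two-colour arrays, which shared 1 slide and 1 scan. Deposited scanner files give raw spot and local background intensity in each channel and, per the file headers, the software's own processed signals (background subtracted, dyes normalized). The deposited value table has a score, 1 signed fold per probe and array. No source used here says how it was made. Its log2 values correlated with the processed signals at 0.984 and 0.986 over 24302 probes well above background, and at 0.576 and 0.456 over all 39396, which settled its direction as Tbx2/Tbx3cDKO over control. Its median was 1, and its centring stays unknown.

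Mean intensities were corrected with normexp (offset 50), and a loess fit within each array, with control spots at weight 0, removed the dye trend. Non-uniform spots (186 and 223) were left out and the spots of a probe averaged. Probes were kept where more than 0.5 of the spots were well above background on both arrays for 1 of the genotypes (25934 of 39396). The probe of highest mean signal stood for a gene. Names came from a RefSeq table of GRCm38.p6 for 28328 probes. The files' own names were used for the other 11101. Levels of single RNAs are log2 values after loess and Aquantile scaling, and levels of different probes are not comparable. Summed levels are sums of the same values before the log, so the brightest probes weigh most. They take the brightest probe of each listed gene on the arrays, with no filter on dim probes. The fit over 20629 genes used limma 3.58.1 in R 4.3.3 (lmFit, then eBayes), with p-values adjusted by Benjamini-Hochberg, on 1 residual and 5.24 prior degrees of freedom. The p-values therefore lean on the spread pooled across genes and cover only the spread between these samples.

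The 10 genes and the other lists were chosen with earlier results of these data known. Of each other list the text names up to 4 genes past the threshold by size, or the 2 largest changes where none passed, and paralogues of the 10 genes. Dmrt2 and P2ry14 were named outside this rule, after their values were seen. No gene is named for likeness of pattern, and the value of 1 gene is not reported here. In simulated data for the same comparison with 20629 genes, 94.0% of 67 genes changed 1.5-fold, 98.5% of 67 changed 2-fold and 100% of 66 changed 4-fold were called, as were 16 of 20429 unchanged genes. The changed genes left out the dimmest ones, and the noise between pairs followed the spread that limma had fitted. These shares therefore need not hold for dim genes or for noise of another kind. Alternatives were other background corrections, the processed signals, median centring, scaling between arrays, other filters, joining of probes, variance models, outlier spots kept, the deposited table and each replicate left out.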

Additional observations from a re-analysis of the deposited data

Results flagged for a closer look

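Ratios of opposite sign in the male and the female pair were found for 10 named genes outside the described set that entered the test. With 1 pair per sex, the difference was not tested, and the dyes differ between the pairs as well. The values below are the male log2 ratio minus the female one.

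In the nephron list, Six2 differed by 1.44, with a ratio of 1.11 in the male and -0.34 in the female pair. Wt1 differed by 0.82, with 0.79 in the male and -0.032 in the female pair.

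Among V-ATPase subunits, Atp6v0a1 differed by 0.23, with 0.043 in the male and -0.19 in the female pair. Tcirg1 differed by 0.13, with 0.11 in the male and -0.019 in the female pair. Atp6v0d1 differed by 0.25, with 0.16 in the male and -0.083 in the female pair. Atp6v1g2 differed by 0.23, with 0.15 in the male and -0.081 in the female pair. Atp6v0a2 differed by -0.26, with -0.12 in the male and 0.14 in the female pair.

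Of the other paralogues, Slc4a2 differed by 0.22, with 0.11 in the male and -0.12 in the female pair. Slc26a6 differed by -0.088, with -0.061 in the male and 0.027 in the female pair. Rhd differed by -0.25, with -0.14 in the male and 0.11 in the female pair. None of these genes passed the limma threshold, and all 12 probes of the described genes kept 1 sign in both pairs.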

How the results depend on the processing

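The number of genes called in all, 759 (385 higher and 374 lower), was 463 with the processed signals (249 and 214), 242 with median centring (114 and 128) and 285 with the deposited value table (142 and 143). The median over the 12 probes, 0.25, was 0.35 with a normexp offset of 16, 0.72 with the processed signals and 0.10 with the deposited table, where 33.7% and 34.1% of all values are exactly 1, and between 0.21 and 0.28 with either pair left out. Between 2 and 4 of the 10 genes were called higher under the alternatives, and none of the 12 ratios turned its sign under them. Calls of 13 genes of the other lists were lost under at least 1 alternative, those of Tfcp2l1, Fxyd4, Hsd11b2 and Hbb-b1 under 3. The causes were not tested. With 1 pair left out there is no residual degree of freedom, so counts of calls have no value then. Each array sets both RNAs of a pair against each other, so the ratio itself is paired and no separate paired analysis was run. Signal near background limits Atp6v0d2, Atp6v1g3, Rhbg and Slc26a4, and 2 pairs limit every value.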
